A study of Rattus norvegicus with 4 samples.

Results

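The genes described here are 9 members of the helix-loop-helix family, namely the inhibitors *Id1*, *Id2*, *Id3* and *Id4*, the lineage factors *Olig1* and *Olig2*, and the E-protein genes *Tcf3*, *Tcf4* and *Tcf12*. They were taken by gene symbol from 17327 symbols listed in each library, and all 9 were present. RNA-Seq had been performed on OLN93 cells, a spontaneously immortalized oligodendroglial line from rat. The comparison was between 2 control libraries, labelled Sox10-positive and numbered 1 and 2, and 2 Sox10-deficient libraries from clones A and B. All cells were kept in DMEM with serum, and the labels name no agent for either group. Sox10 had been inactivated by CRISPR/Cas9 with different guide RNAs in the 2 clones, so that each Sox10-deficient library stood for 1 clone, and effects of the edit and of clonal isolation cannot be told apart. The labels call the controls biological replicates, whereas the study describes them as clones, and p-values measure the spread between these samples.

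Proteins of this family bind DNA as dimers that contact the E-box motif through a basic region next to the helix-loop-helix. E proteins are broadly expressed partners that dimerize with lineage factors such as Olig1 and Olig2 or with themselves. Id proteins carry the helix-loop-helix but no functional basic region, so that a dimer of an Id protein and an E protein does not bind DNA. In the oligodendroglial lineage, Olig2 is needed for specification, Olig1 acts during maturation and remyelination, and Id2 and Id4 are known for keeping precursor cells from differentiating.

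Promoter sequences were compared because members of this family bind E-boxes and the inactivated gene encodes a protein that binds Sox motifs. Of the 9 genes, 8 matched an entry in the RefSeq promoter table of the rat build GRCr8, whereas the counts had been made on rn5. *Olig1* was the gene without an entry. The 250 bases before the start site are shown for *Id1* and *Id4*, whose counts lay on opposite sides of the comparison, and for *Tcf12*, which had the largest fitted difference among the tested members. *Id1* is given for chr3:161671314-161671563 on the plus strand, *Id4* for chr17:16598294-16598543 on the minus strand, and *Tcf12* for chr8:81679923-81680172 on the minus strand. Capitals mark matches to the E-box CANNTG or to the Sox motifs ACAAAG and ACAATG on either strand, and the sequences run 5′ to 3′ on the strand of the gene.
Id1: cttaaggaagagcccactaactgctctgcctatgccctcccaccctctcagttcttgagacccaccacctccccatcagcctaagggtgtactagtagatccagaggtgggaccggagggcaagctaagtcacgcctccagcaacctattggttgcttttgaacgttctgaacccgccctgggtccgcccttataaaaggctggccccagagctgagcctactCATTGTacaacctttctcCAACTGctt
Id4: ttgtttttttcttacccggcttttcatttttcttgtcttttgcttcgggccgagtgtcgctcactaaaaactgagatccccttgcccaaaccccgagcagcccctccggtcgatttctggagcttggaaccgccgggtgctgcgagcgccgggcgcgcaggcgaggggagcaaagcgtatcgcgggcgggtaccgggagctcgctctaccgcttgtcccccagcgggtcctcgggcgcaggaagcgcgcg
Tcf12: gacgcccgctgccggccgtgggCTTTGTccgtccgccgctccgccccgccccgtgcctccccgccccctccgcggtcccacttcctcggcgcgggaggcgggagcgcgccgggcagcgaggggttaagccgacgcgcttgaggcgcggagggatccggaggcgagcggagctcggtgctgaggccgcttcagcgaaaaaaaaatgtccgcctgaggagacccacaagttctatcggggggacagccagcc

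The *Id1* window held 1 E-box and 1 ACAATG match, the latter in reverse orientation. The *Tcf12* window held 1 ACAAAG match in reverse orientation and no E-box. No match to these motifs was found in the windows of *Id4*, *Id3*, *Olig2* and *Tcf4*. That of *Tcf3* held 2 E-boxes and that of *Id2* held 1. Over all 33469 promoters of this table, 65.5% held an E-box, 16.3% held ACAAAG, 11.1% held ACAATG and 25.3% held at least 1 of the Sox motifs. These matches describe letters in the windows and were not set against binding data.

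The deposited counts were few, with totals between 60951 and 104017 per library. The methods of the study state far more reads per library than this, and whether the files hold a part of the reads, or an annotation that covers few of them, was not tested. A gene at 0 or under the floor is therefore low in these files, which need not reflect the depth of sequencing. A count of 3, used as the floor in each library, stood for 29.1 to 48.0 counts per M after normalization (CPM). Floors and counting intervals cover counting error only, and a fold limit against the floor leaves out the counting error of the other group. The targeted gene *Sox10* had 28 reads in control 1 and 64 in control 2, against 0 in clone A and 14 in clone B. The quasi-likelihood test of edgeR gave it a log2 fold change of -2.74 (standard error, SE, 0.62) and an adjusted p of 0.0172. This call was lost without control 2, with a log2 fold change of -2.49 and an adjusted p of 0.546 in edgeR, and without clone A, with -1.75 and an adjusted p of 0.0689. With DESeq2 its adjusted p was 0.9998. As a check of the labelled cell type, *Pdgfra*, *Cspg4* and *Ptprz1*, which mark oligodendrocyte precursor cells (OPCs), had between 16 and 58 counts in every library. The 7 OPC markers, which include *Sox10*, *Olig1* and *Olig2*, summed to between 107 and 155 counts per library. The 7 markers of myelinating oligodendrocytes summed to 84 and 100 counts in the controls, against 59 for clone A and 37 for clone B. Most of these came from *Cnp*, an early myelin enzyme, with 62 and 68 reads in the control libraries, against 35 and 20 in the clones. *Mog* had between 11 and 18 counts in each library and *Myrf* between 6 and 12, whereas *Mag* and *Mobp* were at 0 and *Mbp* had 2 counts in clone A alone. Of these markers 3 were tested and *Cnp* was called lower, with a log2 fold change of -1.36 (SE 0.34) and an edgeR adjusted p of 0.0331. It missed the threshold without control 1 (-1.08, adjusted p = 0.0931), without control 2 (-1.68, 0.497) and, with the same direction, without clone B (adjusted p = 0.300). The lists for astrocytes and neurons summed to at most 1 count per library, that for microglia to between 4 and 14 counts and that for fibroblasts, mostly *Col1a1*, to between 12 and 41. The Schwann cell and neural crest list summed to 46 and 82 reads in the control libraries, against 2 in each clone.

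*Id4* and the *Olig* genes had counts in the controls alone, *Id1* had most of its counts in the clones, and no change was called for the E-protein genes. Of the 9 members, 3 passed the filter on low counts, and these were *Tcf3*, *Tcf4* and *Tcf12*. None of these 3 was called by edgeR with an adjusted p of 0.05 or less, where 3.69% of the 2438 tested genes were. By a fold criterion, here an unadjusted p of 0.05 or less and a change of at least 2-fold in either direction, none of the 3 was called either, where 11.6% of all tested genes were. The study applied the same limits to lower genes alone, and whether its p was adjusted is not given in the sources used here. None had an unadjusted p of 0.05 or less in edgeR or in DESeq2. The other 6 members had between 7 and 16 counts over all 4 libraries and are described by these counts.

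**Figure D1:**
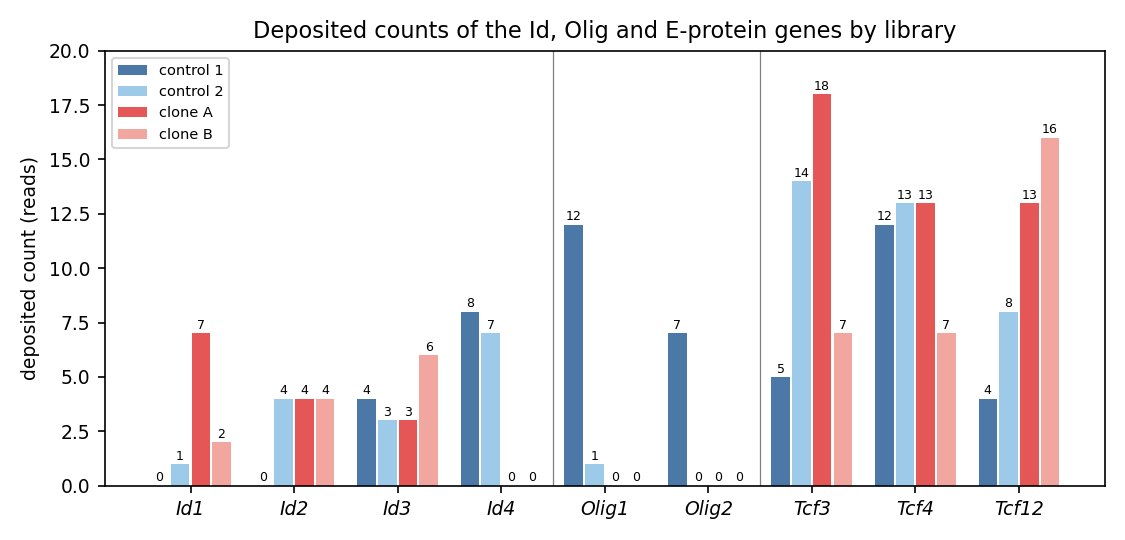
Deposited counts of the 9 genes, with 1 bar per library and the count printed above it; grey lines separate Id, Olig and E-protein genes. *Id4* has 8 and 7 reads in the control libraries and none in the clones, and 12 of the 13 *Olig1* counts lie in control 1.

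Among the Id inhibitors, *Id4* had 8 reads in control 1 and 7 in control 2, and both clones were at 0. In bulk RNA, fewer cells with a transcript and less transcript per cell cannot be told apart, here and for the genes that follow. The normalized levels in the controls were 128 and 67.9 CPM, so that the groups did not overlap, as was the case for 33.4% of all genes with a count. With the clones set to the floor of 3 counts in each library and the control mean taken as observed, the decrease of *Id4* was at least 2.84-fold. This limit lay between 1.97-fold and 3.72-fold with either control alone, the lower value without control 1. When all 10024 genes with a count were fitted without a filter, edgeR gave *Id4* an unadjusted p of 0.000411 and an adjusted p of 0.0381, and the fitted fold change of a gene at 0 depends on the prior count. *Id4* was the 1 member called in that fit, where 0.708% of all genes were called lower. By the fold criterion, *Id4*, *Olig1* and *Olig2* were lower without filter, where 3.28% of all genes were. Of 7 further fits without filter, 2 kept the call. The other 5, which were the fits without any 1 of the 4 libraries and the fit with the replicate number as a block, gave edgeR adjusted p between 0.0910 and 0.813. DESeq2 without filter gave an unadjusted p of 0.00398 and no adjusted p. Over all listed genes, 10 had at least 7 counts in both controls and 0 in both clones, *Id4* among them, and 4 had the opposite pattern. The cut-off of 7 equals the count of *Id4* in control 2.

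*Id1*, which is also an inhibitor and a common target of BMP signalling, had 0 and 1 reads in the control libraries, against 7 for clone A and 2 for clone B. Its levels were 81.3 CPM in clone A and 22.6 CPM for clone B, against 9.69 CPM in control 2. Pooled over the libraries of each group, the ratio of clones to controls was 8.55 with a 95% counting interval from 1.19 to 375. The groups did not overlap, as was the case for 33.4% of all genes with a count. Moreover, clone B and both controls lay under the floor. In the fit without filter, edgeR gave *Id1* a log2 fold change of 2.88 (SE 1.58, unadjusted p = 0.0690, adjusted p = 0.761).

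*Id2*, an inhibitor linked to precursor maintenance, had 0 reads in control 1 and 4 in every other library. The normalized levels were 38.8 CPM in control 2, 46.5 for clone A and 45.3 for clone B. Control 2 and the clones thus had equal counts and differed by library total alone, and the pooled ratio of clones to controls was 1.90 (95% counting interval 0.509 to 8.62). *Id3*, the fourth inhibitor, had 4 and 3 reads in the control libraries, against 3 and 6 in the clones. Its groups overlapped, and the pooled ratio was 1.22 (95% counting interval 0.405 to 3.86). For both genes, a difference was not detectable at these counts, with edgeR adjusted p of 0.895 and 0.970 in the fit without filter.

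Summed over the 4 inhibitors, the libraries were alike, although the genes behind the sum were not. The summed Id counts were 12 and 15 in the controls, 14 for clone A and 12 for clone B. In normalized level this was 169 ± 32.8 CPM in the controls and 149 ± 18.9 CPM in the clones (SD, n = 2 each), and the groups overlapped. *Id4* held 66.7% and 46.7% of the Id counts in controls 1 and 2 and none in the clones. *Id1* held 50.0% of them in clone A against 16.7% in clone B, and *Id3* 21.4% and 50.0%. These shares rest on 12 to 15 counts per library, and the deposited counts are unequal parts of the authors' mean counts for these genes. By those means, which are given further on, *Id3* and *Id1* ranked above *Id4*.

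**Figure D2:**
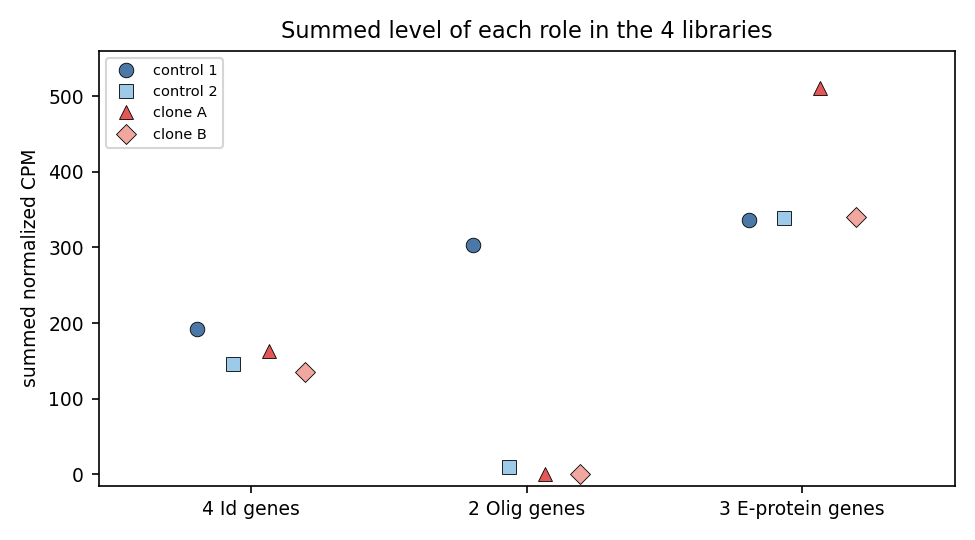
Summed normalized CPM of the 4 Id, 2 Olig and 3 E-protein genes, with 1 point per library. The Id sums lie between 136 and 192 CPM in all libraries, whereas the Olig sum is 304 CPM in control 1 and 9.69 CPM or less elsewhere.

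Both *Olig* genes had nearly all their counts in control 1. *Olig1* had 12 reads there, a single one in control 2 and none in the clones, and *Olig2* had 7 counts there and 0 in the 3 other libraries. For *Olig1*, the level in control 1 was 19.8 times that in control 2 (95% counting interval 2.93 to 846), so that the controls differed from each other by more than counting error. *Sox10* did not share this pattern, with 448 CPM in control 1 and 620 CPM in control 2. *Olig1* was the only listed gene with at least 12 counts in control 1 and at most 1 in the other libraries together. In control 2, 1 gene had that pattern, and in each clone 0 had it. *Olig2* was 1 of 3 genes with at least 7 counts in control 1 and 0 elsewhere, and 7 genes had that pattern in control 2 and 2 in each clone. The cut-offs equal the counts of the *Olig* genes themselves, so these numbers describe how rare such counts were and test nothing.

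With the clones set to the floor, *Olig1* was lower by at least 2.93-fold and *Olig2* by at least 1.63-fold. These limits rested on control 1, without which the controls lay under the floor and no fold could be given. With control 1 as the only control they were 5.57-fold and 3.25-fold. In the fit without filter, edgeR gave *Olig1* an unadjusted p of 0.000715 and an adjusted p of 0.0569, and *Olig2* an unadjusted p of 0.0241 and an adjusted p of 0.508. DESeq2 without filter gave *Olig1* an unadjusted p of 0.116 and *Olig2* one of 0.328. The adjusted p of *Olig1* passed the threshold in 1 of 7 further fits, that with library totals alone, at 0.0478 in edgeR.

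The E-protein genes were the best covered members, with 41 to 45 counts each over the 4 libraries. *Tcf12*, which encodes the E protein HEB, had 4 and 8 reads in the control libraries, against 13 for clone A and 16 for clone B. Its level was 70.7 ± 9.62 CPM in the controls and 166 ± 21.3 CPM in the clones (SD, n = 2 each), and both clones lay above both controls. Such separation in either direction was seen for 43.0% of all tested genes. The log2 fold change was 1.19 (SE 0.61, 95% interval -0.10 to 2.48), and edgeR gave an unadjusted p of 0.0690 and an adjusted p of 0.397. The difference thus missed both criteria, and the interval included 0.

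*Tcf3*, which encodes E12 and E47, had 5 and 14 reads in the control libraries, against 18 for clone A and 7 for clone B. The levels were 108 ± 39.4 CPM in the controls and 144 ± 91.8 CPM in the clones (SD, n = 2 each). Clone B, at 79.3 CPM, lay level with control 1, at 79.9 CPM, and clone A lay above both controls. The log2 fold change was 0.35 (SE 0.62, 95% interval -0.96 to 1.67, adjusted p = 0.896 from edgeR), and it turned to -0.47 without clone A. *Tcf4*, which encodes E2-2 and is not the Wnt effector that shares this name, had 12 and 13 reads in the control libraries, against 13 for clone A and 7 for clone B. Its levels were 159 ± 46.5 CPM in the controls and 115 ± 50.7 CPM in the clones (SD, n = 2 each), and the groups overlapped. The log2 fold change was -0.43 (SE 0.59, 95% interval -1.67 to 0.81, adjusted p = 0.835 from edgeR).

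**Figure D3:**
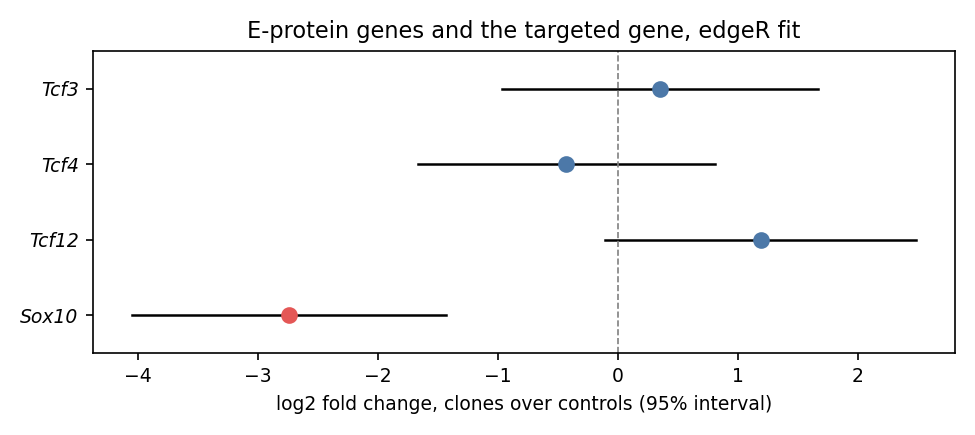
Log2 fold change of clones over controls from the edgeR fit for the 3 E-protein genes and the targeted gene *Sox10*; points are estimates and lines 95% intervals. The intervals of *Tcf3*, *Tcf4* and *Tcf12* include 0, that of *Sox10* runs from -4.05 to -1.43.

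Summed over the 3 genes, the E-protein level was 336 and 339 CPM in the controls, against 511 CPM for clone A and 340 CPM for clone B. Clone B thus lay close to the controls and clone A above them, a difference that was not tested. The sums rest on 21 and 35 reads in the controls, 44 for clone A and 30 for clone B. They join genes that differed, since *Tcf12* was higher in both clones, whereas *Tcf4* was lowest in clone B. *Tcf3* was about as low in clone B as in control 1. The ratio of Id to E-protein counts was 0.571 in control 1 (95% counting interval 0.256 to 1.22) and 0.429 in control 2 (0.217 to 0.805). It was 0.318 for clone A (0.161 to 0.592) and 0.400 for clone B (0.187 to 0.805). The groups did not overlap in this ratio, but every interval included the values of the other 3 libraries. The ratio compares reads and not molecules, because gene length was not taken into account. The deposited counts are also unequal parts of the authors' mean counts for these genes, from 0.125% for *Id1* to 0.814% for *Tcf12*. The ratio thus gives no balance of Id to E-protein transcripts.

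By the root mean square distance between centred log2 profiles over the 4 libraries, *Ppp2r1a* and *Aurka* were most like *Tcf3* (0.074 and 0.079, against a median of 0.618 over 2437 other genes). *Zmym4* and *Ddx3x* were most like *Tcf4* (0.038 and 0.047, median 0.543). *Mnt*, a partner of Max, and *Kank1* were most like *Tcf12* (0.079 and 0.082, median 0.621). Profiles over 4 libraries with so few counts describe these libraries alone.

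The authors' mean counts per gene, which are far larger and are pooled over all 4 libraries, were set beside the deposited counts. They did not sort the members by the filter, since *Id1*, *Id3* and *Id4* had larger means than *Tcf12* but were not tested. The authors' mean was 2006 for *Id1*, 1045 for *Id2*, 3003 for *Id3* and 1518 for *Id4*. It was 4627 for *Tcf3*, 2940 for *Tcf4* and 1259 for *Tcf12*, but 153 for *Olig1* and 0 for *Olig2*. Of the members, *Olig2* was thus the gene with counts by symbol and a mean of 0 in the other table. This was the case for 153 symbols with at least 7 counts among 4743 symbols with a mean of 0.

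The mean deposited count of a gene was 0.384% of the authors' mean in the median of 5353 genes with a mean of at least 500, with quartiles of 0.271% and 0.528%. *Tcf4* lay at 0.383% and *Id2* at 0.287%, within the quartiles. *Id1* and *Id3* had fewer counts than most genes for their mean, with 0.125% and 0.133%. *Tcf3* at 0.238% and *Id4* at 0.247% also lay below the lower quartile, whereas *Tcf12* lay above the upper one, with 0.814%. *Olig1* stood at 2.12%, above the 95th percentile of 1.19% for these genes. Among 1088 genes with a mean between 100 and 250, which are closer to that of *Olig1*, the median was 0.504% and the 95th percentile 4.56%. Whether the annotation by symbol took up other reads of the *Olig* genes than the annotation by Ensembl identifier was not tested.

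**Figure D4:**
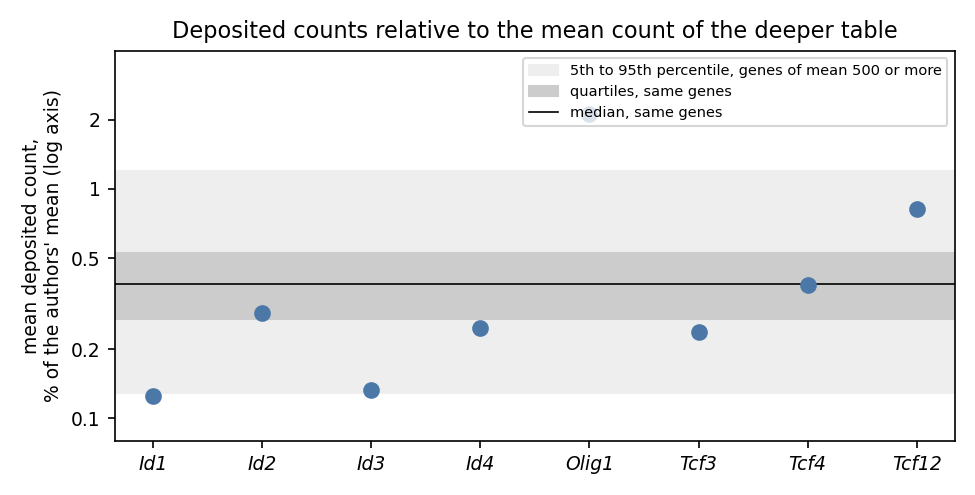
Mean deposited count over the 4 libraries as a percentage of the authors' mean count, on a log axis, for the 8 members whose mean is above 0. The bands show 5353 genes with a mean of at least 500; *Id1* lies below the 5th percentile of 0.129% and *Olig1*, whose own mean is 153, above the 95th of 1.19%.

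Other genes of the helix-loop-helix family were mostly too low to be tested. Of 33 other lineage factors listed, 8 had a count and 1 was tested. This was *Lyl1*, a partner of E proteins in blood cells, with 3 and 17 reads in the control libraries, against 4 and 11 in the clones (adjusted p = 0.900 from edgeR). *Twist1*, a mesenchymal partner of E proteins that was named after its values were seen, was at 0 in both controls, with 14 reads for clone A and 5 for clone B. With the controls set to the floor and the clone mean taken as observed, it was at least 2.85-fold higher in the clones. This limit was 1.47-fold from clone B alone and 4.22-fold from clone A alone. Without filter, edgeR gave *Twist1* an adjusted p of 0.0139, which was 0.169 in DESeq2 and lay between 0.0147 and 0.954 over 8 further fits. It was lost in DESeq2 and without either control or clone A.

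Of the Hes, Hey and Bhlhe repressors, 10 were listed and 1 was tested. *Bhlhe40*, a repressor of the circadian system, had 3 and 10 reads in the control libraries, against 15 and 26 in the clones, with a log2 fold change of 1.59 (SE 0.57, unadjusted p = 0.0126, adjusted p = 0.158 from edgeR). Of 20 bHLH-PAS genes 1 was tested, the oxygen-regulated factor *Hif1a*, with 3 and 6 reads in the control libraries, against 16 and 17 in the clones (log2 fold change 1.78, SE 0.63, unadjusted p = 0.0110, adjusted p = 0.148). Both genes, which were higher in the clones, thus met the fold criterion but not the adjusted one. Of 20 leucine zipper genes 4 were tested and none was called by either criterion. Their median log2 fold change was 0.19, against -0.01 for all tested genes. *Srebf2* and *Mlx* had the highest levels, with log2 fold changes of -0.20 and -0.39 and adjusted p of 0.865 and 0.808 from edgeR.

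BMP signalling through Smad proteins is known to induce Id genes, and 7 of 33 listed genes of this pathway were tested. None was called after adjustment, and the median log2 fold change was -0.08. *Smad3* and *Gdf11*, the best covered, had log2 fold changes of -0.27 and -0.28 with edgeR adjusted p of 0.844 and 0.872. *Fst*, the antagonist follistatin, was named after its values were seen and met the fold criterion as a gene higher in the clones. It had 2 reads in each control, 15 for clone A and 12 for clone B (log2 fold change 2.59, SE 0.85, unadjusted p = 0.00735, adjusted p = 0.115 from edgeR).

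Among the regulators that act with Olig2 in the lineage, 10 of 18 listed genes were tested, and 3 were called. *Sox10* and *Zeb2* were lower and *Sox9* was higher, and 2.50% and 1.19% of all tested genes were called lower and higher by edgeR. *Zeb2*, a Smad-binding repressor downstream of Olig factors, had 35 and 49 reads in the control libraries, against 17 and 19 in the clones, with a log2 fold change of -1.31 (SE 0.35, adjusted p = 0.0477). With all 4 libraries, edgeR kept this call with library totals alone (adjusted p = 0.0324) and with a prior count of 2. The call was lost in DESeq2 (adjusted p = 0.411). In edgeR it was lost with DESeq2 size factors (0.0516), without filter (0.0946), with at least 10 counts in every library (0.0585) and with the replicate block (0.114). It was also lost when any 1 library was left out, with log2 fold changes between -1.46 and -1.22. *Sox9*, a related SoxE factor, had 0 and 2 reads in the control libraries, against 30 and 18 in the clones, with a log2 fold change of 4.37 and an adjusted p of 0.00425 from edgeR. Without control 2, which left the only control at 0, the fitted log2 fold change was 7.44 (adjusted p = 0.459), and without clone A it was 3.97 (adjusted p = 0.248). The median over the list was -0.58 on the log2 scale. None of the 6 tested coregulators of helix-loop-helix factors, of 16 listed, was called by either criterion, with a median of -0.18. *Crebbp*, a histone acetyltransferase, had a log2 fold change of -0.75 and an adjusted p of 0.339 from edgeR.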

How the data were processed

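Deposited RNA-Seq data covered 2 control and 2 Sox10-deficient libraries. Per the labels and the methods of the study, reads had been mapped to rat genome rn5 with STAR 2.5.1 and unique mappings counted with HTSeq. The authors deposited whole-number counts per gene symbol for each library, without normalization. The annotation by symbol and the strand option are not given in the sources used here, so that overlapping genes are uncertain. From a deposited table per Ensembl gene, only the authors' mean count over all libraries was used, which they rounded and which is treated as a score. Its other columns hold the authors' DESeq2 fold changes and p-values and were not used.

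The quasi-likelihood test of edgeR 4.0.16 in R 4.3.3 was run after filterByExpr and TMM normalization, with condition alone in the model and Benjamini-Hochberg adjustment over all tested genes, and checked on simulated counts. The SE came from the F statistic. CPM were counts over library total and TMM factor. Intervals of pooled ratios are exact Clopper-Pearson intervals (95%), and a group at 0 was set to 3 counts per library. Exact permutation of 2 against 2 libraries cannot pass the threshold.

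The members and lists were chosen with earlier results of these data known. Named were all members, *Sox10*, the called genes of each list or otherwise its 2 highest tested genes, and the 2 genes nearest in profile to each tested member. *Twist1*, *Fst* and *Cnp* were added after their values were seen. A gene that this rule names is not reported here. The alternatives were DESeq2 1.42.0, its size factors, library totals alone, a minimum of 10 counts per library, no filter, a block for the replicate number, a prior count of 2 and leaving out each library. Further fits without filter were chosen after seeing the data.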

Additional observations from a re-analysis of the deposited data

How the results depend on the processing

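*Tcf4* and *Tcf12* kept their direction and stayed above the threshold in all 10 alternatives in which they were tested, between -0.95 and -0.04 and between 0.99 and 1.33 on the log2 scale. *Tcf3* ranged from -0.47, without clone A, to 0.90. No member was tested with a minimum of 10 counts per library. Without filter 1 member was called lower after adjustment and 3 (*Id4*, *Olig1* and *Olig2*) by the fold criterion, and in the other alternatives none was. *Id3* in the fit without filter turned from 0.25 to -0.28 without control 2 and to -0.33 without clone B. For *Sox10* the log2 fold change was -2.74 in DESeq2, where the adjusted p was 0.9998, and lay between -8.51 and -1.75 when 1 library was left out. The value of -8.51, without clone B, has the only remaining clone at 0. The causes of these changes were not tested. Fewer libraries entered the fits that left 1 out, and more genes entered the fit without filter.

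Over the whole table, edgeR called 61 genes lower and 29 higher after adjustment, DESeq2 28 and 9, at least 10 counts in every library 8 and 9, and no filter 71 and 47. Leaving out 1 library gave between 0 and 70 lower and between 0 and 39 higher, both at 0 without control 2. By the fold criterion, 170 and 113 genes became 103 and 68 in DESeq2, 329 and 295 without filter and 42 and 31 with at least 10 counts in every library. In the list of regulators acting with Olig2, 3 called genes became 1 in DESeq2 and 0 with 10 counts or more in each, and between 0 and 2 when 1 library was left out. Without filter 1 other lineage factor, *Twist1*, was called.

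The numbers of the libraries do not pair them by their labels. Deviations of same-numbered libraries from their group means had a correlation of 0.121 across 2438 genes. With the replicate number as a block, 28 genes were lower and 14 higher after adjustment, 0 of the regulators acting with Olig2 were called, edgeR gave *Sox10* -2.82 on the log2 scale (adjusted p = 0.125), and no E-protein gene was called.

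The low deposited totals limit all members: 3 counts stand for 29.1 to 48.0 CPM, which 6 of the 9 genes exceeded in only some libraries. Where 1 library was left out, the lone library of that group was assumed to vary like the other group.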
